A study of Ovis aries with 6 samples.

Results

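Collagen chain genes encode the polypeptides that assemble into the collagen triple helix. Of the 23144 genes in the deposited table, 39 have a symbol made of COL, a type number, A and a chain number, and these 39 are described here by their class. The libraries came from the longissimus muscle of female sheep aged 1 year, 3 of Qianhua Mutton Merino (QHMM), a mutton and wool breed, and 3 of Small Tail Han (STH), a traditional local breed, with 1 library per animal. Husbandry was shared and no treatment was given, so breed is the labelled difference between the groups. Poly(A)-containing RNA was read on an Ion Proton instrument, and the comparison throughout is STH vs. QHMM.

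In skeletal muscle, collagens form the connective tissue that wraps each fibre, each bundle of fibres and the whole muscle. Fibroblasts secrete most of the fibrillar chains, types I and III above all, which are hydroxylated and folded in the endoplasmic reticulum, trimmed outside the cell, and cross-linked into tension-bearing fibrils. Type IV collagen forms the sheet of the basement membrane around fibres and capillaries, type VI forms beaded filaments next to it, and other types sit on the fibril surface, span the cell membrane or link the basement membrane to the fibrils beyond it.

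Reads counted on genes numbered 10982191 to 14334544 per library, and 12506 genes passed edgeR's filter on low counts and were tested. A gene was called at an FDR below 0.05 and a change of more than 1.5-fold in either direction. By this rule 432 genes were called, 203 up-regulated and 229 down-regulated in STH. Skeletal muscle markers were abundant in every library: ACTA1, the skeletal alpha-actin gene, had 41975 to 119792 CPM (counts per 1e6, scaled by TMM) in the 6 libraries, and 0 of the 9 tested of 12 such markers were called, while TNNT3 was listed at 0 in all libraries. MB, myoglobin, lay lower in STH without overlap (log2 fold change -1.47, FDR 0.0683). QHMM replicate 2 and STH replicate 3 stood away from the rest on the second principal component. With 3 animals per breed an exact permutation test cannot go below p = 0.10. The edgeR p-values set a breed difference against variation within breeds among these animals only, with that variation estimated in part over all tested genes. In bulk muscle, fewer cells of a type and less RNA per cell cannot be told apart.

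Some chains are not listed by symbol in the table, and their names were found by NCBI gene ID. The table's identifiers LOC443512, LOC100101231, LOC101111927 and LOC101107564 are COL1A2, COL3A1, COL6A1 and COL8A1 in the RefSeq gene table of assembly ARS-UI_Ramb_v3.0. A gene listed as EMID2, which the file's own sequence match names COL26A1, had 0 counts in every library. The table also has a row listed as COL6A1 whose description is the alpha 3 chain of type VI, and whose length, as implied by counts and RPKM, is 10426 bases against 3992 for LOC101111927 and 3977 for COL6A2. The file's sequence match also names this row COL6A3, so its values are those of the alpha 3 chain by description, match and length. Under its listed symbol it is called the COL6A1 row here and counts among the 39, whereas the chains with LOC identifiers do not. For COL4A5 the file's sequence match names COL4A1, so its reads are uncertain.

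Of the 39 collagen chain genes, 23 passed the filter and 16 did not, and 2 of the 16, COL9A2 and COL20A1, had no read in any library. A count of 0 in a library is compatible with an expected count of up to about 3. The reads of all 39 made up 0.164% to 0.283% of a QHMM library and 0.108% to 0.191% of an STH library, with 95% Wilson intervals reaching at most 0.00276 percentage points to either side, which cover counting error only. The level per length, given here as RPKM (read counts scaled by gene length and library total), was spread very unevenly. COL1A1, the alpha 1 chain of type I, led with a mean RPKM of 90.4 over the 6 libraries, followed by COL4A1 at 50.7, COL6A2 at 39.1, the COL6A1 row at 33.2, COL15A1 at 31.7 and COL4A2 at 22.5. COL5A2 at 12.4, COL5A1 at 8.82, COL5A3 at 7.94 and COL14A1 at 6.75 completed the first 10, which held 95.6% of the summed mean RPKM of the 39. A mean RPKM of at least 1 was reached by 16 of the 39, and 23 lay below it. COL3A1, COL1A2 and LOC101111927 (COL6A1 by ID), which lie outside the symbol rule, had mean RPKM of 168, 93.1 and 67.3. By the mean over the 6 libraries, the chains of types I and III were the most abundant collagen messages measured. In STH alone this order did not hold for type I. There LOC101111927 had 59.5 ± 20.5, COL1A1 54.2 ± 27.7 and COL1A2 53.7 ± 24.4 (SD, n = 3). The lead of COL1A1 over COL4A1 was wider than the SDs in QHMM, with an RPKM of 127 ± 41.8 against 53.1 ± 14.5 (SD, n = 3). In STH the same chains lay within their SDs, at 54.2 ± 27.7 and 48.3 ± 6.07.

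In the breed comparison, most collagen chains had lower values in STH, but few passed the test. Of the 23 tested chains, 3 were called, and all 3 were down-regulated in STH: COL15A1, COL11A2 and COL21A1. Of all tested genes, 3.45% were called, and 1.83% were called lower in STH. DESeq2 called 4 chains, these and COL1A1, where it called 4.44% of all tested genes lower in STH. Log2 fold changes lay below 0 in 23 of the 23 tested chains, against 48.2% of all tested genes. Their median was -0.38, with a range of -2.65 to -0.0049, and the median of all tested genes was 0.02. The chains are measured in the same 6 animals, so they are not independent counts. In 6 of the 23, COL1A1, COL5A1, COL6A2, COL11A2, COL15A1 and COL21A1, every STH library lay below every QHMM library in CPM. This held for 11.7% of all tested genes. In 0 of the 23 did every STH library lie above, which held for 13% of all tested genes. In RPKM, which carries no TMM factor, COL5A1 and COL6A2 overlapped. There QHMM replicate 2 (8.14 and 33.6) lay below STH replicate 1 (9.60 and 44.5). COL1A1, COL11A2, COL15A1 and COL21A1 stayed apart in RPKM. Before adjustment, 6 of the 23 had a p-value below 0.05, as did 19.2% of all tested genes. COL11A2 passed the filter through the QHMM libraries alone, and COL21A1, COL28A1 and COL6A5 passed it with 2, 2 and 1 of the 3 STH libraries, so these 4 do not support the count. The other 19 chains, with at least 10 counts in each library, were all below 0 under that filter too. COL15A1 was the 1 of the 19 called there, where 439 of all 11106 tested genes were called. Of the chains without overlap in CPM, COL1A1, COL5A1, COL6A2 and COL15A1 are among these 19, and COL11A2 and COL21A1 are not. COL4A2 and COL14A1 lay above 0 when RPKM values were tested with limma, at log2 fold changes of 0.03 and 0.04.

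**Figure D1:**
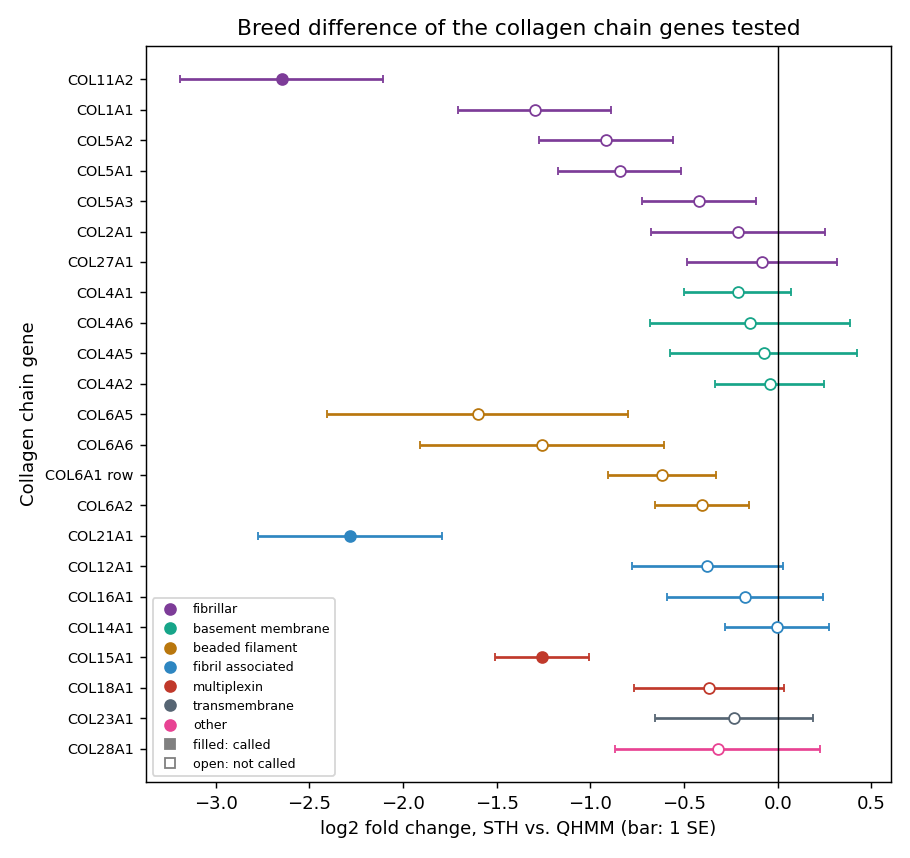
Log2 fold change, STH vs. QHMM, of the 23 collagen chain genes that were tested, with bars of 1 SE, coloured by class and grouped by it; filled points were called. All 23 points lie below 0, from -2.65 for COL11A2 to -0.0049 for COL14A1, and the 4 basement membrane chains lie nearest to 0 as a class.

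Fibrillar collagens, the rope-forming chains of types I, II, III, V, XI, XXIV and XXVII, had 9 members among the 39, of which 7 were tested, 1 was called and 3 did not overlap between breeds, with a median log2 fold change of -0.84. For this class and those below, the shares over all tested genes were 3.45% called and 11.7% lower in STH without overlap. The called chain was COL11A2, which passed the filter through QHMM alone, and without it 0 of 6 were called, 2 did not overlap and the median was -0.63. COL1A1, which pairs with COL1A2 to make type I collagen, the main tensile protein of tendon, bone and muscle sheaths, had 661, 525 and 863 CPM in the QHMM animals, in replicate order, against 343, 113 and 378 in the STH animals. Each STH animal lay below each QHMM animal, and STH replicate 2 lay far below its breed mates, so that the highest STH value was 3.33-fold above the lowest. The means were 683 ± 170.0 and 278 ± 144 CPM (SD, n = 3), a log2 fold change of -1.30 ± 0.41 (SE) that missed the FDR threshold with edgeR's quasi-likelihood test (FDR 0.113). DESeq2 called it (FDR 0.0104), as did edgeR without the filter (FDR 0.0405), and over all the alternatives its FDR ran from 0.0104 to 0.273. COL1A2, its partner, showed the same picture from its own reads, with 605, 527 and 929 CPM in QHMM and 320.2, 126 and 347 in STH. The breeds did not overlap, and the log2 fold change was -1.38 ± 0.38 (FDR 0.0789). COL3A1, the chain of type III, the finer reticular fibril that mixes with type I in muscle, had 1446, 889 and 1561 CPM in QHMM and 578, 296 and 802 in STH. Here too the breeds did not overlap, with a log2 fold change of -1.22 ± 0.37 (FDR 0.105). DESeq2 called both COL1A2 (FDR 0.00314) and COL3A1 (FDR 0.00901).

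Type V collagen, which starts and limits the growth of type I fibrils, is built from COL5A1, COL5A2 and COL5A3. COL5A1 had 91.8, 61.5 and 66.3 CPM in QHMM and 51.7, 20.8 and 49.8 in STH. The STH values lay below every QHMM value, with a log2 fold change of -0.84 ± 0.33 and an FDR of 0.192. COL5A2 had 166, 65.8 and 103 CPM in QHMM and 73.5, 36.8 and 67.5 in STH. These overlapped only between QHMM replicate 2 and the upper STH libraries, and the log2 fold change was -0.92 ± 0.36 (FDR 0.192). COL5A3 had 71.4, 42.5 and 44.3 CPM in QHMM against 40.7, 25.2 and 52.6 in STH. These overlapped, and the log2 fold change was -0.42 ± 0.30 (FDR 0.498). All 3 type V chains were lowest in STH replicate 2, and none of them was called.

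COL11A2, a chain of type XI, which shares with type V the role of a fibril core, was the fibrillar chain that was called. It was read 82, 17 and 38 times in QHMM and 7, 8 and 6 times in STH, or 5.66, 1.54 and 2.98 CPM against 0.447, 0.661 and 0.520. The 3 STH libraries lay close together, well under the lowest QHMM library. The log2 fold change was -2.65 ± 0.54 (FDR 0.0292), the largest in size of the 23. It is a rare message with a mean RPKM of 0.398, and a filter of 10 counts in every library removed it. The call was kept in the fit without QHMM replicate 2 (FDR 0.0242) and lost when QHMM replicate 1 (0.102) or 3 (0.0701) was left out, or STH replicate 1 (0.0563), 2 (0.0646) or 3 (0.0676). Its FDR over all alternatives ran from 0.000465 to 0.223.

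COL11A1, the alpha 1 chain of type XI, did not pass the filter. It was read 11, 9 and 100 times in QHMM against 6, 2 and 8 times in STH, so the STH values lay lower without overlap, and QHMM replicate 3 held most of its reads. Values of 3 genes of tendon or fibril matrix in that animal are given beside it, chosen after they were seen. TNMD, tenomodulin, had 9.26 CPM in QHMM replicate 3 and at most 0.634 in the other 5 libraries, COMP, a cartilage and tendon matrix protein, had 4.0 CPM there and at most 2.51 elsewhere, and FMOD, fibromodulin, a proteoglycan that binds collagen fibrils, had 103 CPM there and at most 18.9 elsewhere. Reads of COL22A1, a chain of the myotendinous junction, numbered 21 in QHMM replicate 3 and 0 to 4 in the other 5 libraries, and COL10A1 had 5 reads there and 0 elsewhere. Of the 5 tendon markers, 4 were in the table, 1 was tested and 0 were called, and their summed level was 141 to 361 CPM in QHMM and 146 to 194 in STH. The part of tendon in the type I and XI values was not tested. Without QHMM replicate 3, the log2 fold change of COL1A1 was -1.09 (FDR 0.273). COL2A1, the cartilage collagen, COL27A1 and COL24A1 remained at 0 to 58 reads per library, and the log2 fold changes of the first pair were -0.21 ± 0.46 (FDR 0.850) and -0.08 ± 0.40 (FDR 0.939).

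**Figure D2:**
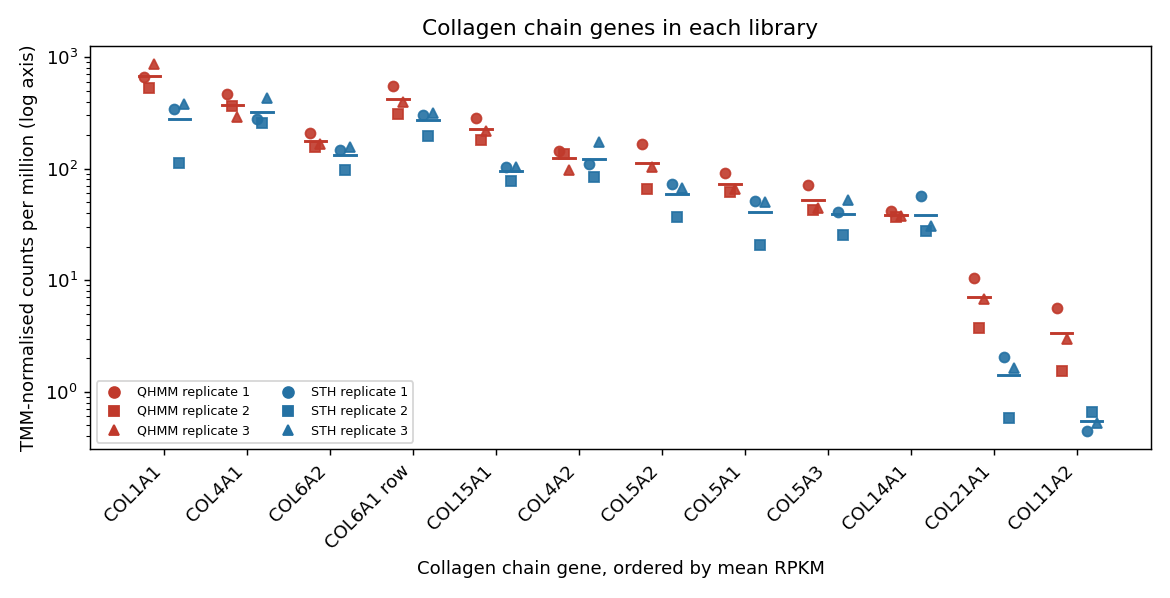
CPM (counts per 1e6, scaled by TMM; log axis) of 12 collagen chain genes in each of the 6 libraries, for the 10 with the highest mean RPKM and the called COL21A1 and COL11A2; short bars are breed means. On this scale COL1A1, COL5A1, COL6A2, COL15A1, COL21A1 and COL11A2 separate the breeds fully, while COL4A1, COL4A2 and COL14A1 mix them. In RPKM, COL5A1 and COL6A2 overlap.

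Basement membrane collagens, the 6 type IV chains, showed the smallest breed differences of the larger classes. Of these, 4 were tested, 0 were called, 0 were free of overlap, and the median log2 fold change was -0.11. COL4A1 had 469, 363 and 289 CPM in QHMM and 276, 259 and 432 in STH. The ranges crossed widely, and STH replicate 3 exceeded all but QHMM replicate 1. This gave a log2 fold change of -0.21 ± 0.28 (FDR 0.737). COL4A2, which assembles with COL4A1 in the most widespread type IV network, had 145, 134 and 98.2 CPM in QHMM against 109, 84.4 and 173 in STH. Its log2 fold change was -0.04 ± 0.29 (FDR 0.959). COL4A5 and COL4A6, chains of the X chromosome, had 2.34 to 7.59 and 1.07 to 3.38 CPM, and log2 fold changes of -0.08 and -0.15. COL4A3 and COL4A4, the kidney and lung chains, had 1 to 11 reads in each library.

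Because COL1A1 and COL4A1 differed in their breed difference, their ratio was examined after the values had been seen. In RPKM the QHMM ratios of COL1A1 over COL4A1 were 1.81, 1.86 and 3.83, and the STH ratios 1.6, 0.563 and 1.13. Each STH ratio lay below each QHMM ratio, and the mean log2 ratio differed by -1.23, with a two-sided exact permutation p of 0.1, the smallest that 3 against 3 allows. This pair was picked because of its values, and its p-value is given as a description.

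Type VI collagen, whose chains form a beaded filament between fibre and matrix, had 4 members, of which all 4 were tested, 0 were called and 1 was free of overlap, with a median log2 fold change of -0.94, or -0.62 over the 3 without COL6A5, which passed the filter with 1 STH library. COL6A2 had 209, 157 and 165 CPM in QHMM and 148, 97.6 and 156 in STH, with QHMM replicate 2 only just above STH replicate 3. This gave a log2 fold change of -0.40 ± 0.25 (FDR 0.418). The COL6A1 row, with the alpha 3 description, had 551, 309 and 395 CPM in QHMM and 305, 198 and 314 in STH, which overlapped narrowly, and a log2 fold change of -0.62 ± 0.29 (FDR 0.278). LOC101111927, the COL6A1 gene by ID, had 418, 244 and 262 CPM in QHMM against 246, 130.4 and 322 in STH. The log2 fold change was -0.40 ± 0.35 (FDR 0.574). COL6A6 and COL6A5, the late-found and less abundant type VI chains, had log2 fold changes of -1.26 ± 0.65 (FDR 0.322) and -1.6 ± 0.80 (FDR 0.308). COL6A6 ranged from 0.991 to 8.55 CPM in STH, an 8.63-fold spread among 3 animals, and COL6A5 never exceeded 21 reads. COL6A6 was called without STH replicate 1 (log2 fold change -2.50, FDR 0.0449), and its FDR over all alternatives ran from 0.0417 to 0.666.

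Fibril-associated collagens with interrupted triple helices, which coat fibrils and link them to other matrix, had 10 members, of which 4 were tested and 1 was called, a chain that passed the filter with 2 of the 3 STH libraries. COL21A1, a fibril-associated chain made in vessel walls, had 152, 41 and 87 reads in QHMM and 32, 7 and 19 in STH, or 10.5, 3.71 and 6.83 CPM against 2.04, 0.578 and 1.65. The lowest QHMM animal lay above the highest STH animal. The log2 fold change was -2.28 ± 0.49 (FDR 0.0359), a ratio of 0.206. Its call was kept without QHMM replicate 2 (FDR 0.0313) or STH replicate 1 (0.0308) and lost when QHMM replicate 1 (0.108) or 3 (0.0872), or STH replicate 2 (0.0733) or 3 (0.0679), was left out, and its FDR over all alternatives ran from 0.000169 to 0.187. COL14A1, which binds type I fibrils in muscle and skin, had 41.4, 36.9 and 37.4 CPM in QHMM and 56.7, 27.6 and 30.9 in STH. The QHMM animals were nearly equal, the STH animals fell on both sides of them, and the log2 fold change was -0.0049 ± 0.28 (FDR 0.993). COL12A1, a relative of COL14A1 in tendon and muscle sheaths, had 30.6, 18 and 55.9 CPM in QHMM against 37.8, 16.3 and 26.4 in STH. This gave a log2 fold change of -0.38 ± 0.40 (FDR 0.664). COL16A1 had a log2 fold change of -0.17 (FDR 0.866). COL9A1, COL9A2, COL9A3, COL19A1, COL20A1 and COL22A1 were not tested and had at most 21 reads in a library.

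Multiplexins, basement membrane zone collagens that carry sugar chains, had both of their members tested. COL15A1, the chain that anchors the basement membrane of muscle fibres and capillaries to the fibrils around them, had 283, 182 and 218 CPM in QHMM and 104, 77.6 and 103 in STH. The breeds were far apart, since the lowest QHMM value exceeded the highest STH value by more than the whole STH range. Means were 227 ± 51.4 and 95 ± 15.1 CPM (SD, n = 3), and the log2 fold change was -1.26 ± 0.25, a ratio of 0.418 (FDR 0.0253). COL15A1 was the called chain with the most reads, between 939 and 4100 per library. It stayed called without QHMM replicate 2 (FDR 0.0395), STH replicate 1 (0.0364) or STH replicate 3 (0.0467), and lost the call when QHMM replicate 1 (0.0869) or 3 (0.0699) or STH replicate 2 (0.0810) was left out. With limma on RPKM it missed the threshold (FDR 0.0542), and its FDR over all alternatives ran from 0.000103 to 0.129. COL18A1, the other multiplexin, had 2.89 to 9.87 CPM, with overlapping breeds and a log2 fold change of -0.36 ± 0.40 (FDR 0.671).

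The remaining chains were rare. Of the 4 transmembrane chains only COL23A1 was tested, at 1.73 to 4.16 CPM, with a log2 fold change of -0.23 ± 0.42 (FDR 0.813). COL13A1, which helps to keep the nerve-muscle junction in place, had 6, 13 and 12 reads in QHMM and 2, 1 and 5 in STH, all of the STH counts being lower than the QHMM counts although the CPM values overlapped between QHMM replicate 1 and STH replicate 3. COL25A1, a chain with a role in motor innervation, had 6, 3 and 2 reads in QHMM and 1, 0 and 1 in STH, without overlap but on very few reads. COL17A1 had at most 2 reads. COL7A1, the anchoring fibril chain, was the 1 untested chain whose STH values all lay above the QHMM values, at 9, 1 and 5 reads in QHMM and 19, 9 and 8 in STH, or 0.0905 to 0.621 CPM against 0.693 to 1.21. COL8A2 had at most 18 reads, and COL8A1, found by ID, had a log2 fold change of 0.28 ± 0.48 (FDR 0.802). COL28A1, a chain of nerve sheaths, had 7 to 36 reads and a log2 fold change of -0.32 (FDR 0.803).

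Summed over a class, each library gave a single value. The 39 chains together had 2797, 1933 and 2401 CPM in QHMM and 1601, 977 and 1819 in STH. All STH sums lay below the QHMM sums, and the ratio of means was 0.617, a log2 difference of -0.70. With RPKM or with CPM of the library total, which carry no TMM factor, the sums overlapped, at log2 differences of -0.64 and -0.61. Fibrillar chains summed to 1003, 701 and 1092 CPM in QHMM and 515, 200.1 and 553 in STH, a log2 difference of -1.14, and overlapped on those other scales. With COL1A2 and COL3A1 added, the fibrillar sums were 3054, 2116 and 3581 CPM against 1413, 621 and 1702, a log2 difference of -1.23, and the breeds stayed apart on all 3 scales. Basement membrane chains summed to 625, 502 and 394 CPM in QHMM and 397, 348 and 609 in STH, with overlap and a log2 difference of -0.17. Type VI sums overlapped at a log2 difference of -0.56, and multiplexin sums, nearly all COL15A1, did not overlap on any scale. No test was made on these sums.

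**Figure D3:**
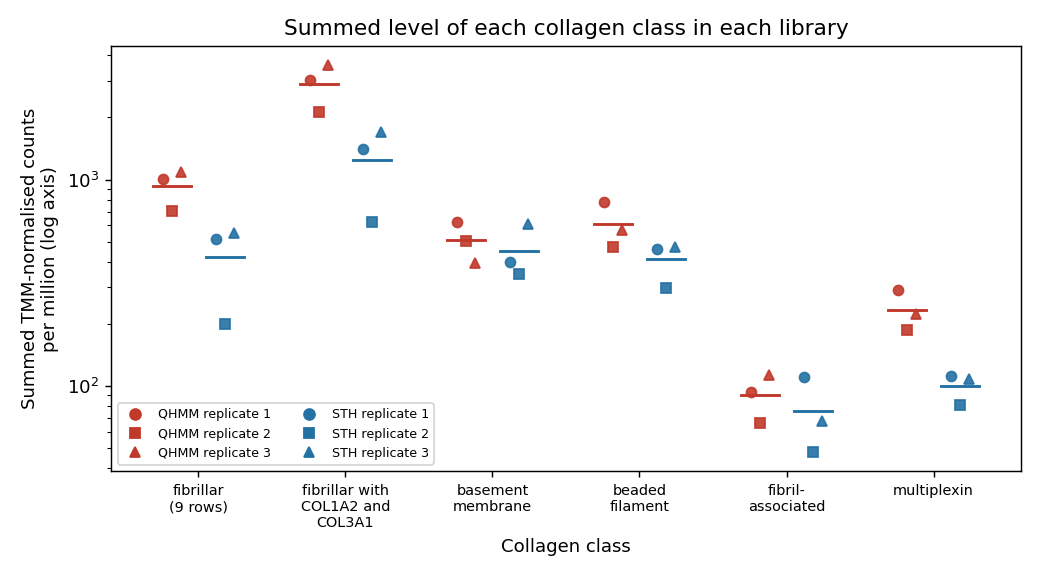
Summed CPM (counts per 1e6, scaled by TMM; log axis) of each collagen class in each library, with short bars at the breed means. Fibrillar and multiplexin sums lie lower in all 3 STH libraries, from 200.1 to 553 and 80.5 to 112, while the basement membrane sums of the breeds mix.

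The chains followed the same animals. QHMM replicate 1 held the highest value in 14 of the 23 tested chains (60.9%), against 16.0% of all tested genes, and STH replicate 2 held the lowest value in 18 of the 23 (78.3%), against 21.2% of all tested genes. With STH replicate 2 left out, 18 of 26 chains tested had a log2 fold change below 0 and 0 were called, and with QHMM replicate 1 left out these were 17 of 25 and 0. Without QHMM replicate 3, 20 of 25 lay below 0 and 0 were called. Without the pair of libraries apart on the second principal component, 21 of 23 lay below 0 and 0 were called, while 11 of all genes were called in that fit.

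For chains that assemble into the same molecule, the ratios of the breeds overlapped in every pair examined. COL1A1 over COL1A2 in RPKM ran from 0.867 to 1.05 over the 6 libraries, with a log2 difference between breeds of 0.02 (two-sided exact permutation p = 1.0). COL4A1 over COL4A2 ran from 2.0 to 2.60, with a log2 difference of -0.14 (exact permutation p = 0.3). COL5A1 over COL5A2 ran more widely, from 0.595 to 1.01, with a log2 difference of -0.06 (exact permutation p = 1.0). COL3A1 over COL1A1, chains of different molecules, ran from 1.62 to 2.50, with a log2 difference of 0.16 (exact permutation p = 0.7). For type VI, COL6A1 by ID over COL6A2 ran from 1.33 to 2.06, the COL6A1 row over COL6A2 from 0.750 to 1.01, and their log2 differences were -0.03 and -0.18 (exact permutation p = 1.0 and 0.4). COL6A1 by ID over the COL6A1 row ran from 1.72 to 2.68, with a log2 difference of 0.15 (exact permutation p = 0.5). In all, 8 ratios were compared, COL1A1 over COL4A1 among them, and their Benjamini-Hochberg adjusted p-values ran from 0.8 to 1.0. A p-value of this size does not show that ratios are equal.

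**Figure D4:**
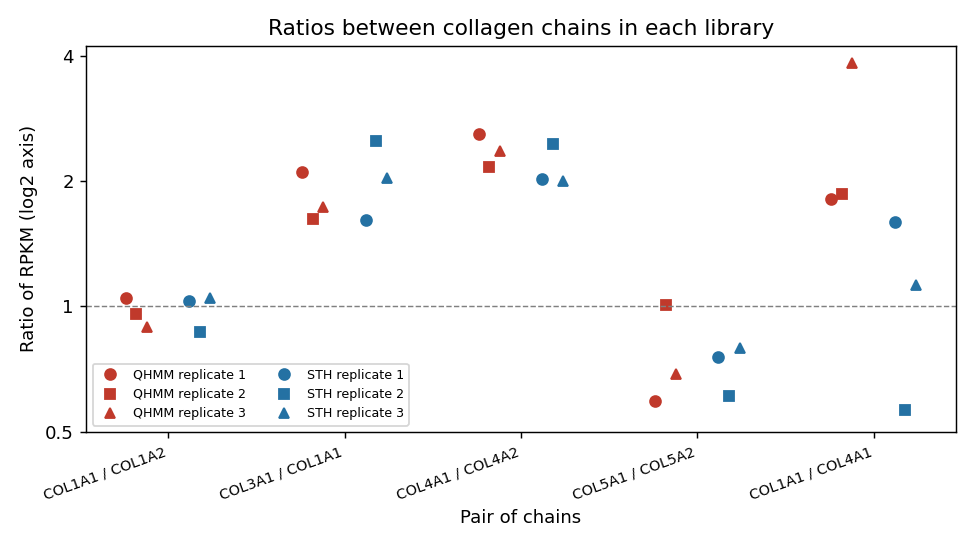
Ratio of deposited RPKM (log2 axis) between pairs of collagen chains in each library. COL1A1 over COL1A2 stays between 0.867 and 1.05 in both breeds, while COL1A1 over COL4A1, chosen after its values were seen, lies lower in every STH library.

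Neighbouring genes were compared, because several collagen genes sit next to each other in the RefSeq gene table of assembly ARS-UI_Ramb_v3.0. Of 6 neighbour pairs among the chains, 4 had both genes tested. COL4A1 and COL4A2, on opposite strands, had log2 fold changes of -0.21 and -0.04, and COL3A1 and COL5A2, also on opposite strands, had -1.22 and -0.92. COL6A1 by ID and COL6A2 had -0.40 each, and COL6A6 and COL6A5 had -1.26 and -1.6. These last pairs are each on the same strand. Whether any of the pairs overlap was not examined. Since the counting is not stated to use strand, reads of any neighbours that overlap on opposite strands cannot be told apart.

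Enzymes that modify and fold collagen chains came next. Of 20 such genes 19 were in the table, 18 were tested, 1 was called up-regulated and 1 down-regulated, with a median log2 fold change of -0.40. For this list and those below, the shares over all tested genes were 3.45% called and 24.7% without overlap in either direction. P3H2, listed as LEPREL1, a prolyl 3-hydroxylase of basement membrane collagens, fell from 11.3, 9.41 and 8.32 CPM in QHMM to 4.28, 4.71 and 4.76 in STH, a log2 fold change of -1.08 ± 0.25 (FDR 0.0459). COLGALT2, listed as GLT25D2, which adds galactose to hydroxylysine, rose from 5.38, 6.34 and 4.24 CPM to 9.83, 12.6 and 15.1, a log2 fold change of 1.23 ± 0.27 (FDR 0.0400). In neither gene did the breeds overlap. SERPINH1, the collagen chaperone HSP47, had 252, 140.3 and 109 CPM in QHMM against 86.0, 42.1 and 107 in STH. This gave a log2 fold change of -1.10 ± 0.38 (FDR 0.150). P4HA2, a catalytic subunit of prolyl 4-hydroxylase, had a log2 fold change of -0.73 (FDR 0.112), and P4HB, its partner subunit and a general disulfide isomerase, had 0.83 (FDR 0.0971), each without overlap. PLOD3, a lysyl hydroxylase, also had higher values in STH without overlap, at 0.56 (FDR 0.212).

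Proteins that trim and cross-link collagen outside the cell, 13 in all with 11 tested, gave 0 calls and a median log2 fold change of -0.41. BMP1, the C-propeptide protease, had a log2 fold change of -1.07 (FDR 0.126), ADAMTS2, the N-propeptide protease, -1.19 (FDR 0.0936), and PCOLCE, the enhancer of BMP1, -0.57 (FDR 0.266), and in all 3 the STH values lay below the QHMM values. LOX, the lysyl oxidase that starts cross-links, had higher values in STH without overlap, at 1.08 (FDR 0.136), while its relatives LOXL2 and LOXL3 had lower values without overlap, at -0.94 (FDR 0.208) and -0.66 (FDR 0.246). Of 15 fibril-regulating matrix proteins, all tested, 0 were called, and the median was -0.49. SPARC, which escorts collagen out of the cell, had 1238, 734 and 1068 CPM in QHMM and 417, 450.4 and 546 in STH, a log2 fold change of -1.10 ± 0.27 that missed the threshold (FDR 0.0529). The small leucine-rich proteoglycans FMOD, KERA and PRELP, which bind fibrils or basement membranes, also had lower values in STH without overlap, at -2.22 (FDR 0.0898), -1.85 (FDR 0.0817) and -0.48 (FDR 0.311). For FMOD, QHMM replicate 3 lay far above all the other libraries, as given above with COL11A1.

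Among 11 basement membrane partners, all tested, 0 were called and the median log2 fold change was -0.32. The laminin subunits lay on both sides of 0. LAMA4, the laminin alpha chain of capillaries, had a log2 fold change of -1.26 (FDR 0.0600) and LAMB2 had -1.01 (FDR 0.0827), whereas LAMA2, the laminin alpha chain of muscle fibres, had 0.61 (FDR 0.197), none with overlap. LAMC1, the gamma chain common to most laminins, lay higher in STH without overlap (0.47, FDR 0.293), and the linker NID2 (-0.74, FDR 0.132), the proteoglycan perlecan HSPG2 (-0.39, FDR 0.408) and SMOC2 (-0.72, FDR 0.240) lay lower. Of 10 collagen receptors, 7 were tested and 1 was called: MRC2, the endocytic receptor that takes up collagen fragments, fell from 73.8, 48.2 and 56.1 CPM in QHMM to 18.6, 10.8 and 23.9 in STH, a log2 fold change of -1.74 ± 0.30 (FDR 0.0161). The most abundant receptor gene was the integrin subunit ITGB1, at 0.02 (FDR 0.979). Of 11 collagenases and inhibitors, 6 were tested and 0 called, with a median of -0.02, and the most abundant was the inhibitor TIMP2, at 0.45 (FDR 0.314). Of 16 TGF-beta pathway genes, 15 were tested and 0 called, with a median of -0.30, and TGFB2, a ligand of that pathway, came nearest at -1.19 (FDR 0.0548). Its signal transducer SMAD3 had -0.96 (FDR 0.0904) and THBS1, an activator of TGF-beta, 1.92 (FDR 0.133), both without overlap.

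Markers of the cells that make collagen were set beside these values. Of 10 fibroblast markers, all tested, 0 were called, 8 were below 0, the median log2 fold change was -0.46, and the summed level was 668 to 1093 CPM in QHMM and 499.6 to 987 in STH, with overlap. THY1 and PI16 in that list had lower values in STH without overlap, at -1.03 (FDR 0.0739) and -1.19 (FDR 0.0894), and DCN, the most abundant, had -0.45 (FDR 0.407). DCN, LUM and DPT stand in this list and among the fibril-regulating proteins. Of 6 adipocyte markers, all tested, 5 were called down-regulated, namely LEP, CIDEC, PLIN1, ADIPOQ and GPD1, against 1.83% of all tested genes. The median log2 fold change of the 6 was -2.25, and their sums were 1560.4 to 1925 CPM in QHMM and 452 to 629 in STH. Most of that sum was GPD1, an enzyme that muscle fibres also express. ADIPOQ, adiponectin, had 247, 85.2 and 129 CPM in QHMM and 35.7, 39.6 and 30.4 in STH. None of the 6 adipocyte markers was at 0 in all libraries, although LEP was at 0 in STH replicate 2. LEP thus passed the filter without that library and does not support the count of calls. Of 9 endothelial markers 7 were tested, with 0 called and a median of -0.03, although VWF (0.40, FDR 0.346) and EMCN (0.67, FDR 0.203) lay higher in STH without overlap. Of 7 pericyte and smooth muscle markers, 7 were tested with 0 called and a median of 0.20, and NOTCH3 (-0.64, FDR 0.165) lay lower without overlap. Of 7 macrophage and leukocyte markers and 6 Schwann cell markers, 6 and 6 were tested, with 0 called and medians of -0.23 and -0.06, and AIF1 (-0.80, FDR 0.166) lay lower without overlap. Of 4 satellite cell markers 3 were tested, and the median was -0.0084. CDH15 was called up-regulated (log2 fold change 1.12, FDR 0.0448), while PAX7 and MYF5 had -1.43 (FDR 0.294) and -0.0084 (FDR 0.994). The 3 blood markers in the table were not tested, and their sums were at most 1.53 CPM. The part of these cells in the collagen values was not tested.

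**Figure D5:**
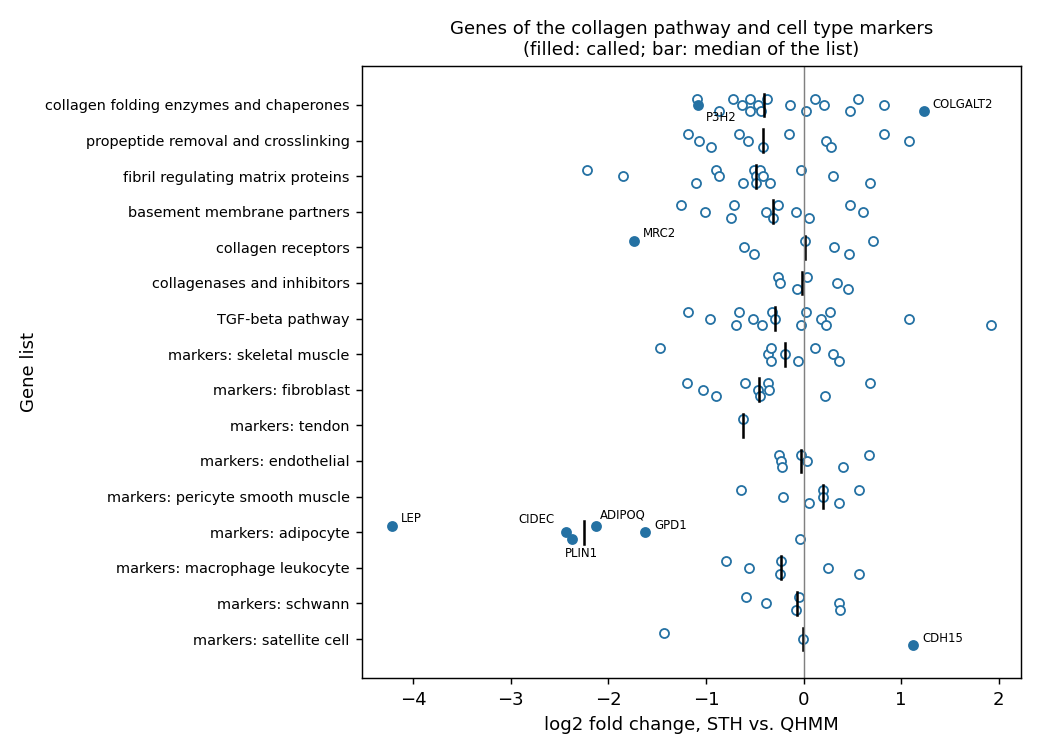
Log2 fold change, STH vs. QHMM, of the tested genes of each collagen pathway list and each cell type marker list; filled points were called and bars are list medians. Called genes are P3H2, COLGALT2, MRC2, CDH15 and 5 of 6 adipocyte markers, and the adipocyte median of -2.25 lies farthest from 0.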

How the data were processed

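Counts were deposited by the authors as the number of unique mapped Ion Proton reads on each gene, without normalization, and the RPKM values deposited by the authors divide those counts by a gene length and a library total. The genome build was Oar 3.1 according to the submitters' processing notes; the aligner, the counting program and its strand setting are not given in the sources used here. All 12 per-sample columns were used, and 0 were left unmapped. Selection of the members by symbol and the grouping into classes, pathway lists and marker lists were chosen with earlier results of these data known.

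The test on counts was edgeR's quasi-likelihood F test (edgeR 4.0.16, R 4.3.3) with breed as the only term, after filterByExpr and TMM scaling, with Benjamini-Hochberg adjustment over 12506 genes. The SE was obtained from the log2 fold change and the F statistic. CPM are counts per 1e6 counts of the TMM-scaled library. Every chain was described by class, and library values were printed for chains that were called, did not overlap or were among the 10 with the highest mean RPKM, and of the other lists genes called, without overlap or highest in RPKM were named. Library values of rarer chains, TNMD and COMP were added after their values were seen. Ratios were compared by exact permutation, two-sided. Alternatives used DESeq2 1.42.0 and limma 3.58.1, the latter on log2(RPKM + 1) and log2(RPKM + 0.1); in total there were 11 with all libraries, 1 without a pair of libraries and 6 without 1 library. The planned search of promoter motifs was not run. The scripts were tested on simulated data, and plots were drawn with matplotlib 3.10.9 in Python 3.11.15.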

Additional observations from a re-analysis of the deposited data

How the results depend on the processing

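Against 432 genes called, an FDR of 0.01 gave 41, DESeq2 973, no filter 806, limma on every gene above 0 gave 78, and leaving out QHMM replicate 2 with STH replicate 3 gave 11, while leaving out 1 library gave 131 to 535. With limma on log2(RPKM + 1), 212 were up- and 134 down-regulated, against 203 and 229; with log2(RPKM + 0.1) the median of all genes shifted by 0.12. Against 3 collagen chains called, no filter gave 5, at least 10 counts in every library gave 1, and an FDR of 0.01, the 3 limma fits and the fit without that pair of libraries gave 0, while leaving out 1 library gave 0 to 3. DESeq2 gave 4, the 3 and COL1A1. Chains below 0 numbered 13 of 15 in the limma fits on filtered genes and 17 to 24 when 1 library was left out. The replicate numbers are not stated to pair the animals. Same-numbered deviations correlated at 0.23, -0.04 and -0.13, and not every library correlated best with its own number. With so few animals these values cannot exclude a shared batch or day. With the replicate block, 457 genes and 5 chains were called, adding COL1A1 (FDR 0.0414) and COL6A6 (FDR 0.0417). The log2 fold change of COL4A2 was 0.027 with log2(RPKM + 1), filtered or not, and 0.028 with log2(RPKM + 0.1), and that of COL14A1 was 0.042 and 0.035 in the same fits and 0.089 without that pair of libraries; with limma on every gene, COL4A5 was at 0.0078 and COL27A1 at 0.013. Leaving out 1 library moved the log2 fold change from -0.38 to 0.15 for COL4A2, -0.87 to 0.38 for COL4A5, -0.79 to 0.43 for COL4A6, -0.72 to 0.14 for COL12A1, -0.41 to 0.17 for COL14A1, -0.69 to 0.18 for COL16A1, -0.36 to 0.25 for COL27A1, -0.44 to 0.23 for COL2A1, -0.75 to 0.017 for COL18A1, -0.64 to 0.080 for COL28A1, -0.50 to 0.23 for COL23A1 and -0.25 to 0.84 for COL8A1 (LOC101107564). The log2 ratio difference moved from -0.037 to 0.10 for COL1A1/COL1A2, -0.22 to 0.16 for COL5A1/COL5A2, -0.19 to 0.12 for COL6A1 by ID over COL6A2 and -0.013 to 0.31 for COL6A1 by ID over the COL6A1 row. The cause of these changes was not tested. With the chains under other identifiers, added after seeing the data, the summed level in CPM scaled by TMM differed by -0.89 on the log2 scale, without overlap. In RPKM and in CPM of the library total the breeds overlapped, at log2 differences of -0.82 and -0.81. At this depth COL11A2 and COL21A1 rest on 6 to 8 and 7 to 32 reads per STH library.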
